A study of Mus musculus with 6 samples.

Results

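A-kinase anchoring protein genes encode scaffolds that tether protein kinase A, the kinase switched on by cyclic AMP, to particular places in the cell. The 9 genes examined, chosen by name from the gene column of the authors' table, were Akap1, Akap6, Akap8, Akap8l, Akap9, Akap10, Akap11, Akap12 and Akap13, out of 10818 gene names with at least 1 peak. Of these, 8 had a peak, 87 peaks in all among 55449, and Akap10 had no row and was not tested. The study asked which RNA sites the protein ZFP36L2 contacts in MLTC-1, a line from a mouse tumour of Leydig cells, using eCLIP. In this assay ultraviolet light (254 nm, 400 mJ per cm2) links proteins to RNA, an antibody recovers the protein, and the RNA pieces that come with it are read. The 6 libraries form 4 groups: 2 immunoprecipitations with an antibody against ZFP36L2 and their 2 inputs, and 1 immunoprecipitation with rabbit IgG and its 1 input. All came from the same line under the same crosslinking, with no genetic change and no hormone or drug named in the labels.

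Anchoring proteins typically carry a short helix that docks on the regulatory subunits of the kinase, and a separate part that directs the complex to a membrane, organelle or filament. Most also hold phosphatases, phosphodiesterases or other kinases, so that the signal is both delivered and shut off locally. In Leydig cells luteinizing hormone acts through cyclic AMP and protein kinase A to start steroid synthesis. ZFP36L2 is a CCCH zinc finger protein of the ZFP36 family, known to bind AU-rich elements, mostly in 3′ UTRs, and to speed decay of the bound mRNA.

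The deposited values were 1 log2 fold change of ZFP36L2 over IgG, 1 p-value and 1 adjusted p-value per peak. A positive value means more signal with the ZFP36L2 antibody, a direction taken from the name of the table. Calls required an adjusted p under 0.05. Such a peak is enriched where its log2 fold change is 1 or more, and depleted where it is -1 or less. No column held a value for a library, so levels per library, their spread and the depth behind a peak cannot be shown, and the IgG arm has 1 immunoprecipitation. Every fold change below is therefore a value without an error. Nothing in the labels says that the 2 ZFP36L2 libraries came from separate cultures, so any spread behind the p-values may be technical. The median over all peaks was -1.06 on the log2 scale in the authors' deposited table, so a gene whose values lie a little below 0 still lies above that median.

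The labelled cell type was checked against marker genes, although a peak shows only that reads were called there and is not a level of expression. Of 8 Leydig cell markers, 4 had peaks (Lhcgr, Cyp11a1, Star and Nr5a1) and Insl3, Hsd3b1, Hsd3b6 and Cyp17a1 had none. None of 4 Sertoli cell markers had a peak, 1 of 2 germ cell markers did, and both macrophage markers did. All 6 cardiac muscle markers had peaks, 753 in sum, but 566 of these were in Ttn and 117 in Ryr2. The others had from 6 (Actc1) to 44 (Myh6). Akap6 is best known from heart and brain, and its 20 peaks stand beside those cardiac ones. Their part in its values was not tested.

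Across the 87 peaks, 10 (11.5%) were called enriched, against 2.22% of all peaks in the table, and 5 (5.75%) were called depleted, against 5.44%. The share of depleted peaks lay near that of the table. The 10 enriched peaks fell in 5 genes, Akap9, Akap12, Akap11, Akap8 and Akap8l, and the 5 depleted ones in Akap8l and Akap13. Of the 8 genes with peaks, 62.5% thus had an enriched one, against 5.04% of all genes and 6.61% of the 5916 genes with 3 to 22 peaks, the range of these 8. A depleted peak occurred in 25.0% of them, against 17.3% of all genes and 23.3% of genes in that range. Without Akap9, 5 of 72 peaks (6.94%) were enriched and 5 were depleted. The genes had been chosen with results of these data known, so these shares describe them and carry no test.

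**Figure D1:**
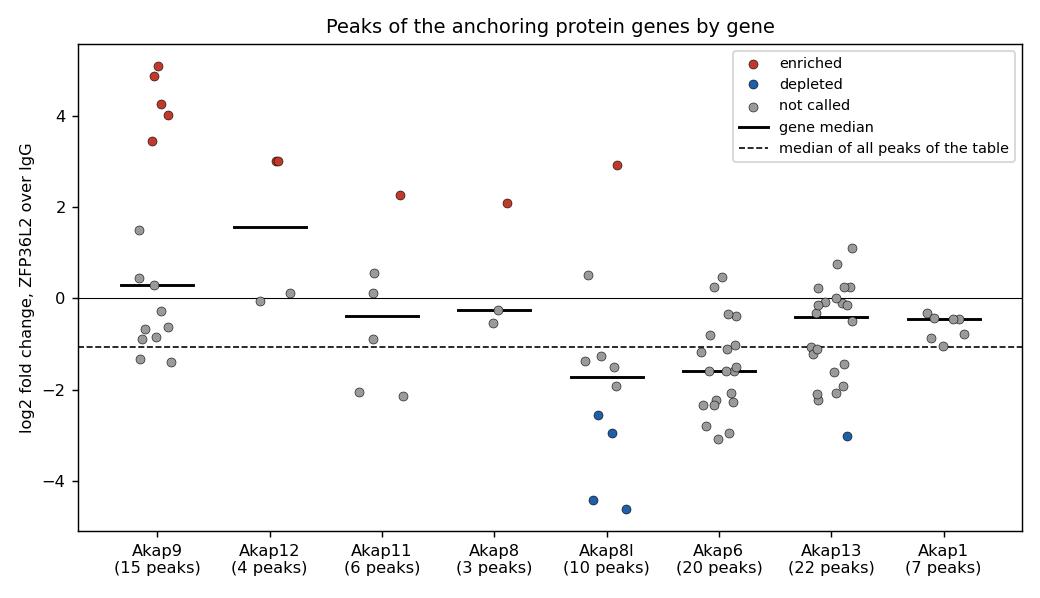
Each point is 1 peak, placed by its log2 fold change of ZFP36L2 over IgG (vertical axis) within its gene (horizontal axis, with the number of peaks); colours give the call, short lines the gene median and the dashed line the median of all 55449 peaks, -1.06. The 5 enriched Akap9 peaks lie between 3.45 and 5.09 with no other peak of the gene above 1.50, whereas Akap8l has 1 peak at 2.92 and 4 depleted peaks from -4.62 to -2.55.

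Akap9 encodes a very large coiled-coil scaffold (also called AKAP450) of the centrosome and Golgi apparatus, where it organises microtubule nucleation. It held the strongest enrichment of the group. Of its 15 peaks, 10 coding and 5 intronic, 5 were enriched and none was depleted. It is 1 of 47 genes (0.434%) with 5 or more enriched peaks. That share is over all genes, whose median number of peaks is 3, so many of them could not reach 5. The peak with the smallest adjusted p lay in coding sequence at chr5:3956157-3956161 on build mm10, 5 bases long, where the authors' deposited table gave a log2 fold change of 5.09 (adjusted p = 4.3e-18). This peak ranked 195 among all 1231 enriched peaks by adjusted p. An intronic peak 424 bases before it, at chr5:3955665-3955732, stood in the authors' deposited table at 3.45 (adjusted p = 1.3e-08).

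The other 3 enriched Akap9 peaks were coding and lay 83.1 kb further on, towards the 3′ end of the gene. In the authors' deposited table the peak at chr5:4039232-4039265 had 4.88 (adjusted p = 2.2e-11). For the next, at chr5:4046902-4046942, the authors' deposited table gave 4.26 (adjusted p = 2.6e-14). The last, only 3 bases long at chr5:4050155-4050157, had in the authors' deposited table a value of 4.02 (adjusted p = 6.5e-10). From the first to the last, the enriched peaks spanned 94.5 kb of a 152 kb gene, so they form a pair near the start and a group of 3 at 112 to 122 kb rather than 1 site.

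Between these 2 sets lay 6 Akap9 peaks, none called, with log2 fold changes from -1.39 to 1.50 in the authors' deposited table. Beyond the last enriched peak lay 4 more coding peaks, all not called, between -1.33 and -0.63 in the authors' deposited table. Of the enriched peaks, 2 were under 10 bases long, and without such short peaks 3 enriched ones were left.

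Akap12 encodes gravin (SSeCKS), a scaffold at the plasma membrane and cytoskeleton that also binds protein kinase C. All 4 of its peaks were intronic. Its 2 enriched peaks touch each other, at chr10:4323752-4323763 and chr10:4323764-4323810, and the authors' deposited table gave both of them 3.02 on the log2 scale (adjusted p = 4.5e-04 and 2.4e-04). Taken as 1 stretch they make 1 enriched site of 59 bases, 57.5 kb from the 5′ end. The other 2 Akap12 peaks, at 21.0 and 44.5 kb, had 0.11 and -0.05 in the authors' deposited table and were not called. The one at 21.0 kb lies within the RefSeq span of the long noncoding RNA gene Gm40592 as well.

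The second of these uncalled Akap12 peaks is shown because it is the 1 member peak of 87 that lies wholly within a promoter window of the RefSeq tables (build GRCm38.p6, the same as mm10), from 250 bases before to 50 bases after a start. The window is that of Gm40592, a long noncoding RNA gene annotated on the opposite strand. The sequence is given 5′ to 3′ on the Akap12 strand, with its longest run of purines in capitals.
Akap12 chr10:4310801-4310854 (+): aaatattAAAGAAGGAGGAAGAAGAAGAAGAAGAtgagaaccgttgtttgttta
The run is 27 bases long. A run at least as long occurred in 3 (0.730%) of the 411 peaks of the table that lie within such a window, this peak included. Peaks shorter than 27 bases, which cannot hold such a run, were not left out of that share. A or T made up 68.5% of the bases, against a median of 35.7% in those 411 peaks. The sense strand was searched for ATTTA and for 3 longer forms that contain it, namely TATTTA, then TATTTAT, then the nonamer TTATTTATT. None was in these 54 bases. ATTTA occurred in 0.730% of the 411 peaks and the longer forms in 0. These are letters in 1 window and say nothing of the called peaks, whose sequences were not analysed here.

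Akap11 encodes AKAP220, a scaffold that is known to hold protein phosphatase 1 and the kinase GSK3B. Of its 6 peaks 1 was enriched, in the 5′ UTR at chr14:78536719-78536800, where the authors' deposited table gave 2.26 (adjusted p = 0.038). That peak lay 60 to 141 bases downstream of a RefSeq start site of the gene. The adjoining 5′ UTR peak, 11 bases at chr14:78536708-78536718, had -0.90 in the authors' deposited table and was not called, a step of 3.16 between neighbours. A touching pair of intronic peaks stood at -2.13 and -2.06, and a touching coding pair at 0.56 and 0.11, in the authors' deposited table. At an adjusted p under 0.01 Akap11 had no enriched peak.

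Akap8 and Akap8l encode related nuclear zinc finger proteins (AKAP95 and its homologue HAP95) that bind chromatin, and they are neighbours on the minus strand of chromosome 17, with Akap8l ending at 32321424 and Akap8 starting at 32321238 in RefSeq. Akap8 had 3 peaks. The intronic one at chr17:32312596-32312662 was enriched, in the authors' deposited table at 2.09 (adjusted p = 1.9e-04), the smallest fold change of the 10 enriched peaks. A touching pair in the 3′ UTR had -0.54 and -0.26 in the authors' deposited table and was not called.

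Akap8l had both enriched and depleted peaks, as did 107 genes (0.989%) in the table, and it was the only member that did. That share is over all genes, whose median number of peaks is 3, whereas Akap8l had 10. The enriched peak of Akap8l, intronic at chr17:32335024-32335052, had in the authors' deposited table a value of 2.92 (adjusted p = 1.5e-08). Its place was 15.6 kb from the 5′ end, near the middle of a 29.2 kb gene. A peak of 1 base in the same part of the gene, 15.1 kb from the 5′ end, had 0.52 in the authors' deposited table, and no other Akap8l peak was above 0.

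The 4 depleted Akap8l peaks lay on both sides of it. The strongest was in the 5′ UTR at chr17:32350501-32350526, 51 to 76 bases downstream of the RefSeq start site, where the authors' deposited table gave -4.62 (adjusted p = 8.1e-08). Among 3019 depleted peaks it ranked 181. It touches a coding peak of 14 bases with -1.38 in the authors' deposited table, which was not called. An intronic peak at chr17:32346240-32346302 followed in the authors' deposited table with -4.41 (adjusted p = 8.9e-06).

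The remaining depleted Akap8l peaks had larger adjusted p-values. In the authors' deposited table a coding peak at chr17:32345378-32345398 had -2.94 (adjusted p = 0.038). An intronic one near the 3′ end, at chr17:32322795-32322821, had in the authors' deposited table -2.55 (adjusted p = 0.022). Neither passed an adjusted p under 0.01, at which 2 depleted peaks of the gene were called. The 5 uncalled peaks ranged from -1.93 to 0.52 in the authors' deposited table.

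**Figure D2:**
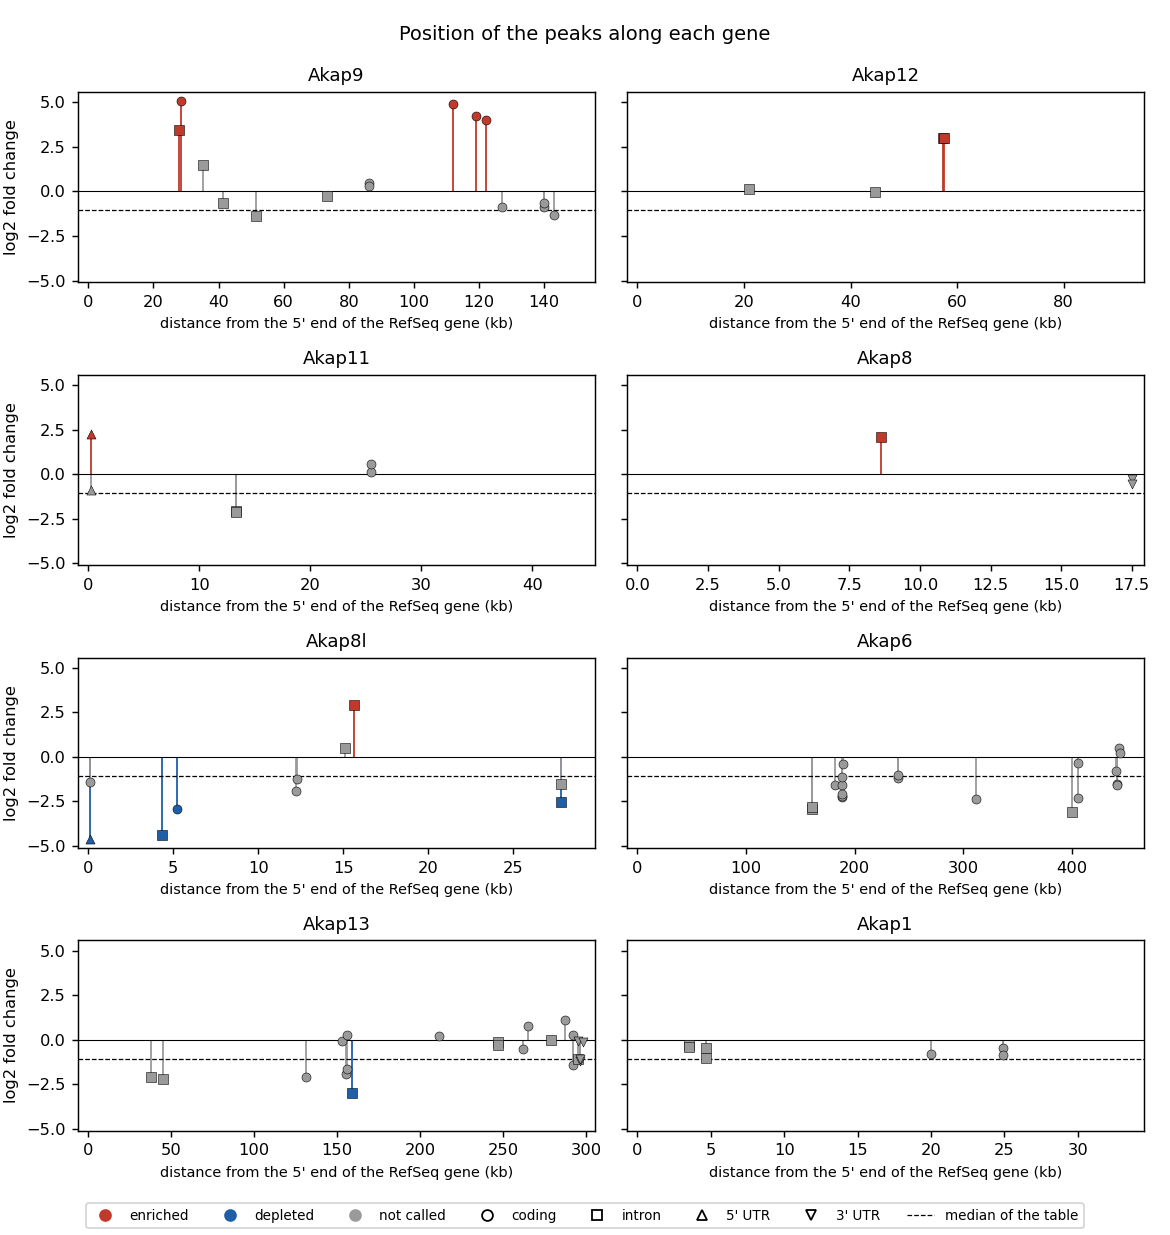
Each panel is 1 gene; the horizontal axis is the distance of a peak's middle from the 5′ end of the RefSeq gene in kb, the vertical axis its log2 fold change of ZFP36L2 over IgG, and the marker gives the transcript region and the colour the call. In Akap9 the enriched peaks sit at 28.0 to 28.4 kb and at 112 to 122 kb with uncalled peaks between them, and in Akap8l the enriched peak at 15.6 kb lies between depleted peaks at 5.23 and 27.8 kb.

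Akap6 encodes a scaffold of the nuclear envelope of muscle cells and neurons, where it brings protein kinase A together with a phosphodiesterase and the ryanodine receptor. Its 20 peaks, 17 coding and 3 intronic, gave no call in either direction. In the table, 90 of the 346 genes with 20 or more peaks (26.0%) likewise had no called peak. The lowest Akap6 values were intronic, -3.09, -2.95 and -2.80 in the authors' deposited table, and the smallest adjusted p of the gene was 0.072. From its 5′ end, the first 18 peaks all had values below 0 (-3.09 to -0.34), and the last 2, both coding and 443 to 444 kb along a 457 kb gene, had 0.48 and 0.24 in the authors' deposited table. The median of the gene was -1.58, below the median of the table by 0.52 on the log2 scale.

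Akap13 encodes AKAP-Lbc, a scaffold that is also an exchange factor for the small GTPase RhoA. It had the most peaks, 22, with 11 in coding sequence, 7 in introns and 4 in the 3′ UTR. A single intronic peak of 14 bases at chr7:75614906-75614919 was depleted, in the authors' deposited table at -3.01 (adjusted p = 0.030), and not called at an adjusted p under 0.01. Up to and including that peak, 4 of 8 values were under -2 and their median was -1.99 in the authors' deposited table. The 14 peaks after it ranged from -1.44 to 1.11, and in the authors' deposited table their median was -0.14. This division of the gene was chosen after the values were seen, and the 2 ranges overlap.

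Akap1 encodes a scaffold of the mitochondrial outer membrane that also has an RNA-binding KH domain. Its 7 peaks, 3 coding and 4 intronic, lay close together, between -1.04 and -0.31 in the authors' deposited table, and none was called. All were below 0 and all above the median of the table. The 4 intronic peaks lie within the RefSeq span of the long noncoding RNA gene 4930556N13Rik as well, and the sources used here do not say whether the authors used strand to assign them. Akap10, whose product anchors the kinase through both types of regulatory subunit, could not be described for want of a peak.

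By gene median in the authors' deposited table, the order from high to low was Akap12 (1.56), Akap9 (0.29), Akap8 (-0.26), Akap11 (-0.40), Akap13 (-0.41), Akap1 (-0.44), Akap6 (-1.58) and Akap8l (-1.72). Neighbours in this order differed by less than the range of the peaks within either gene, other than Akap1 and Akap6. Even those overlapped, since Akap6 reached from -3.09 to 0.48 and Akap1 from -1.04 to -0.31. Relative to the median of the table, the medians of Akap6 and Akap8l lay below and those of the other six above.

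The median of all 87 peaks was -0.78 in the authors' deposited table, 0.28 above that of all peaks, and 71.3% of values were below 0, against 76.2%. The quartiles were higher too, at -1.59 and 0.17 against -1.90 and -0.06, and 58.6% of values lay above the median of the table. Values of 2 or more made up 11.5% of the peaks, against 2.67% in the table, and values of -2 or less 20.7%, against 22.0%. Without Akap9 the median was -0.96.

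**Figure D3:**
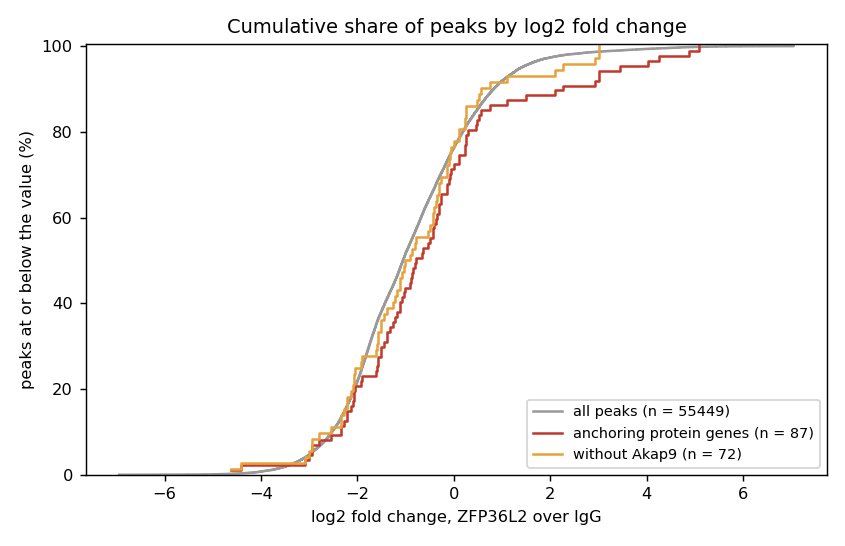
The curves give, for each log2 fold change of ZFP36L2 over IgG (horizontal axis), the percent of peaks at or below it, for all 55449 peaks, the 87 peaks of the anchoring protein genes and the 72 left without Akap9. The medians are -1.06, -0.78 and -0.96; of the anchoring protein peaks 58.6% lie above the median of all peaks, and 11.5% lie at 2 or more, against 2.67% of all peaks.

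The region of the peaks within transcripts was not used to choose the genes. Coding sequence held 47 of the 87 peaks (54.0%), against 37.0% in the table, introns 31 (35.6% against 42.3%), 3′ UTRs 6 (6.90% against 13.6%) and 5′ UTRs 3 (3.45% against 2.21%). The coding peaks were spread unevenly, with 17 in Akap6, 11 in Akap13, 10 in Akap9 and none in Akap8 or Akap12. The 4 enriched coding peaks (8.51% of the coding ones, against 2.35% in the table) were all in Akap9. The 5 enriched intronic ones (16.1% of the intronic ones, against 2.17%) were in Akap9, Akap12, Akap8 and Akap8l. The genes were chosen with results known, so these shares of called peaks carry no test. In the 3′ UTRs, where the AU-rich sites of the ZFP36 family mostly lie, no member peak was called. The 6 peaks there, in Akap8 and Akap13, ranged from -1.21 to -0.08 in the authors' deposited table. Across the whole table, 1.46% of 3′ UTR peaks were enriched and 4.83% depleted, so 6 peaks can show little.

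**Figure D4:**
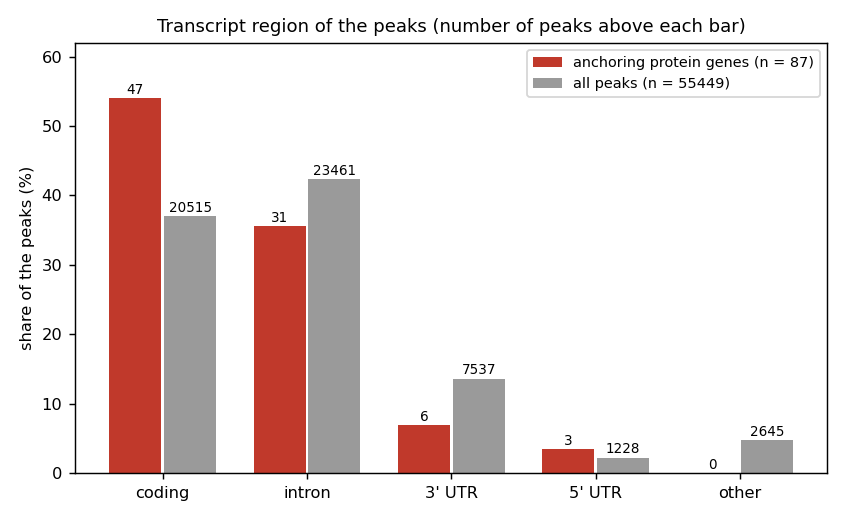
Bars give the percent of peaks in each transcript region for the 87 peaks of the anchoring protein genes and all 55449 peaks of the table, with the number of peaks above each bar. Coding sequence holds 54.0% against 37.0% and 3′ UTRs 6.90% against 13.6%; the figure carries no test, as peaks of 1 gene are not independent.

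Neighbouring peaks often share an edge, and 87 peaks reduced to 66 separate stretches. Among 21 touching pairs the median difference between the neighbours was 0.28 on the log2 scale, the same as over 15049 such pairs in the table. Differences over 1 occurred in 5 pairs (23.8%, against 10.3%), and 3 pairs (14.3%, against 5.32%) had a call on 1 side only. Those 3 were the 5′ UTR pair of Akap11, the pair at the start of Akap8l (a difference of 3.24) and the intronic pair at the end of Akap8l (1.04).

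The rest of the protein kinase A pathway was taken from lists drawn up for this comparison, also with results of these data known. Of 22 other anchoring genes 14 had peaks. An enriched peak occurred in 1 of these (7.14%) and a depleted one in 2 (14.3%), near the 5.04% and 17.3% of all genes. By peak the shares differed from the table. Of 150 peaks 10.0% were enriched, all in 1 gene, against 2.22%, and 1.33% were depleted, against 5.44%. The enriched gene was Pakap, which joins the paralemmin and AKAP2 coding parts, with 15 of 43 peaks enriched and a best-supported peak that the authors' deposited table puts at 3.92 (adjusted p = 2.3e-19). A single depleted peak in the authors' deposited table belonged each to Nbea, which encodes neurobeachin, a protein of membrane traffic (-3.52, adjusted p = 0.0089), and Arfgef2, a Golgi exchange factor (-3.13, adjusted p = 0.014).

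Of 9 kinase subunits and inhibitors 8 had peaks. An enriched peak occurred in 1 gene (12.5%, against 5.04% of all genes and 6.61% of those with 3 to 22 peaks). A depleted one occurred in 2 (25.0%, against 17.3% of all genes and 23.3% of those with 3 to 22 peaks). That range is the one of the anchoring genes. Prkar1a, with 1 peak, and Prkar1b, with 2, lie below it. Of the 39 peaks of these 8 kinase genes, 2.56% were enriched, near the 2.22% of the table, and 7.69% were depleted, against 5.44%. Prkaca, the catalytic subunit, had 1 of 8 peaks enriched, coding, in the authors' deposited table at 2.53 (adjusted p = 0.049). Among the regulatory subunits, which anchoring proteins bind, Prkar2a, of type II, had 2 of 9 peaks depleted, which the authors' deposited table puts at -3.60 (adjusted p = 5.2e-05) and -3.56. The 1 peak of Prkar1a, in the 3′ UTR, had in the authors' deposited table -2.92 (adjusted p = 0.0091). Prkar2b and Prkar1b had no called peak.

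Of 30 enzymes and scaffolds that anchoring proteins hold, 25 had peaks, with an enriched peak in 3 (12.0%) and a depleted one in 10 (40.0%), against 5.04% and 17.3% of all genes. These 25 genes held 411 peaks, while the median over all genes was 3 peaks per gene. The shares of genes were not matched for that number. Of the 411 peaks, 3.41% were enriched and 4.14% depleted, against 2.22% and 5.44% in the table. The share of depleted peaks was thus below that of the table. Ryr2, the cardiac ryanodine receptor that Akap6 scaffolds, had 12 of 117 peaks enriched, in the authors' deposited table up to 4.17 (adjusted p = 3.2e-08), whereas Akap6 had none. Gsk3b, the kinase that Akap11 holds, had 1 enriched and 2 depleted peaks among 12, at 3.15, -3.45 and -2.87 in the authors' deposited table. Pde4dip, myomegalin, a Golgi and centrosome partner of Akap9, had 1 of 65 peaks enriched, in the authors' deposited table at 2.41 (adjusted p = 0.020). Depleted peaks included those of Kcnq1, a potassium channel that Akap9 binds (-3.00), Csnk1e, casein kinase 1 epsilon (-4.08), Ppp3ca, the calcineurin catalytic subunit (-3.84), and Pde4d, a cyclic AMP phosphodiesterase (-3.70), in the authors' deposited table.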

How the data were processed

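The labels describe 6 eCLIP libraries. Tools listed in the submitters' processing notes, without role or order, are DESeq2 1.34.0, STAR 2.7.7a, cutadapt 3.2 and UMI-tools 1.1.1, and the build is mm10. The sources used here do not give peak calling, pooling, use of the inputs or scaling. What the authors deposited was a single table of peaks with a log2 fold change, and a p-value and adjusted p-value as −log10 values, converted back here. Unknown scaling can shift all fold changes by a constant. A Benjamini-Hochberg adjustment recomputed over all rows differed from the deposited one by at most 0.00990 on the −log10 scale.

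All rows whose gene name, split on |, was a member were taken. The members and lists were chosen with earlier results of these data known. Each member is named, with its called peaks, and up to 6 called genes of each list by adjusted p. No member peak had several names, and all 87 lay inside the RefSeq gene (GRCm38.p6), to which all 9 symbols matched. Calls, adjustment and merging were tested on simulated data (Python 3.11.15, pandas 2.3.3, numpy 2.4.6, scipy 1.17.1). Planned motif counts were made for 1 peak only and no RefSeq exon classes were used, as no genome was used here.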

Additional observations from a re-analysis of the deposited data

How the results depend on the processing

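The calls were repeated with a size of at least 2, with no minimum size, centred on the table's median, with peaks of 1 gene name, with the recomputed adjustment and with touching peaks merged. Without peaks under 10 bases, an alternative chosen after seeing the data, 8 peaks were enriched. All these settings kept 5 genes with an enriched peak and 2 with a depleted one. Several of them could not have done otherwise. No member peak had several names, and called values were 2.09 or more or -2.55 or less, beyond either size limit. Centring kept the adjusted p-values and raised all fold changes, so it could not remove an enriched call. The recomputed adjustment was nearly that of the authors. At an adjusted p under 0.01, depleted peaks dropped from 5 to 2 and the genes holding them from 2 to 1 (Akap8l), while 9 peaks in 4 genes were enriched. Centring turned the median of the members from -0.78 to 0.28. Leaving out 1 gene at a time gave -0.96 (without Akap9) to -0.44 (without Akap6). No paired analysis was possible because the table holds no values per library, and for the same reason no replicate was left out and no counts were refitted. Depth is unknown, so what it limits cannot be stated.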
